A study of Mus musculus with 12 samples.

Results

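Cxcl13, Cxcr5, Ccl19, Ccl21a, Ccr7, Lta, Ltb, Ltbr, Glycam1 and Madcam1, the chemokines, lymphotoxins and vessel genes that build and fill lymphoid tissue, were followed across 12 TC2Ras prostate tumors. These 10 genes of the 55401 in the count table were chosen by symbol for their function, with earlier results of the same tumors known, in which the levels of 1 Control tumor stood apart. Values of that tumor (Control replicate 1) are therefore given as a description with no test. For the 7 members that could be tested, the difference from Control is given with and without it. TC2Ras is a Ras-driven mouse prostate cancer line. Every mouse ate low-arsenic chow with Milli-Q water before implantation, and received 125000 cells under the skin, implanted in both flanks.

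The 4 groups held 3 tumors each, 1 mouse per sample with both flanks combined, taken at day 21. Control tumors grew from TC2Ras cells alone in mice at 0 ppb inorganic arsenic (iAs). ASC tumors grew from TC2Ras cells mixed with 1% ASC-GFP, primary adipose stromal cells of male C57BL/6 mice that carry a GFP transgene. As300 tumors grew from TC2Ras cells alone in mice drinking 300 ppb iAs, and ASC_As300 tumors from the mixture at the same iAs level. The strain and age of the host mice are not given in the sources used here. The labels name stromal cells as the cell type where the protocols describe whole tumors, and the libraries held both stromal and leukocyte transcripts: Pdgfra ran from 63.7 to 127 CPM (CPM, the usual scaling of counts to library size, with TMM factors). Of the epithelial markers, Krt8 ran from 24.1 to 337 CPM, and Epcam reached 1.34 CPM in its highest tumor. P-values below measure the spread between these mice.

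In lymph nodes and Peyer's patches, lymphotoxin made of Lta and Ltb on lymphocytes engages the receptor Ltbr on stromal cells, which signals through the noncanonical NF-kB pathway. The stroma then makes Cxcl13, which draws B cells through Cxcr5, and Ccl19 and Ccl21, which draw T cells and dendritic cells through Ccr7. Lymphocytes leave the blood at high endothelial venules (HEV), whose cells make Glycam1, a mucin-like glycoprotein, and, in mucosal tissue, Madcam1, the ligand of the integrin with Itgb7.

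Since most of these genes were high together in 1 tumor, their promoters were searched for GGGANNNNCC, a relaxed NF-kB motif, on both strands. RefSeq promoters (GRCm38.p6, 250 bases before to 50 after the start) were found for 8 of the 10 members, and the motif for 4 of them, Cxcl13, Ccl19, Madcam1 and Ltb, against 20.7% of all 32851 promoters. Each is shown 5′ to 3′ along its gene's strand, with the bases of each match in capitals.
Cxcl13, chr5:95956689-95956988, plus strand: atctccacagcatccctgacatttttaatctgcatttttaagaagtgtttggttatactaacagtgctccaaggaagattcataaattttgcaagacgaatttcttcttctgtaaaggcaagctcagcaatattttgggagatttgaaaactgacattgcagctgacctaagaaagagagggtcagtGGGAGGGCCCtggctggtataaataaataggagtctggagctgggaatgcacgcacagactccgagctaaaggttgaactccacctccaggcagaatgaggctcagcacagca
Ccl19, chr4:42756316-42756615, minus strand: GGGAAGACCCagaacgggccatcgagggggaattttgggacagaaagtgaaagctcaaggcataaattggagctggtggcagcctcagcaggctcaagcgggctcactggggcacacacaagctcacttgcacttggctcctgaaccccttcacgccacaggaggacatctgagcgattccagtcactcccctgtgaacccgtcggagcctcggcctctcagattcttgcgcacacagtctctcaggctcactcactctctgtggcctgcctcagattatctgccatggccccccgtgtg
Madcam1, chr10:79664309-79664608, plus strand: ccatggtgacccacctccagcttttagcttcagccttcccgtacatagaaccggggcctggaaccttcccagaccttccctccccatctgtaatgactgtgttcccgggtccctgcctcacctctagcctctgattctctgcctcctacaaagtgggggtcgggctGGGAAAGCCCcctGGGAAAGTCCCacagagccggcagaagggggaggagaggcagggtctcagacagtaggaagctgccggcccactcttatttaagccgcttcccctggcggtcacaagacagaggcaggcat
Ltb, chr17:35194257-35194556, plus strand: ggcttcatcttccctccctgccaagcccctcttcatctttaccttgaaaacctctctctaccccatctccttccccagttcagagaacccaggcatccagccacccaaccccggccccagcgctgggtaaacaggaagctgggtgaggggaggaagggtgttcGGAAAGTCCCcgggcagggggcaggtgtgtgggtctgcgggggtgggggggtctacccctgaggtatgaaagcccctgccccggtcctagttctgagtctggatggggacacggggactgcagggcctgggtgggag
The first matched base lay 63 bases before the start in Cxcl13, 87 in Ltb and 250 in Ccl19. Madcam1 held 3 matches, which begin 84, 71 and 70 bases before its start, and the last pair overlap. No match was found in these windows for Ccl21a, Ltbr, Glycam1 or Lta. A match describes the letters alone.

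Ccl21a needs a second look at its sequence, since its reads can be shared with near-identical copies. Over the 402 coding bases in GENCODE M21 transcripts, Ccl21b differed from Ccl21a at 2 positions, counted from 1 at the start codon: T84A and C194T. Bases 54 to 114 are shown, with the first of these in capitals.
Ccl21a: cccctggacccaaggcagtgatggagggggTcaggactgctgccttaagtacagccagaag
Ccl21b: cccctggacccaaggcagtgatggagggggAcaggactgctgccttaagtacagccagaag
The predicted genes Gm10591, Gm13304 and Gm21541 carried both substitutions too. How the authors' counting split reads among these 5 copies is not given in the sources used here, so Ccl21a is reported with their sum beside it.

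Total counts ran from 39157647 to 55168642 per tumor. Low counts favored multiples of 4, so a gene at or under 12 counts in a tumor was treated as at the floor, a limit that covers counting error only. Only Ccr7, Ltb and Ltbr were above this floor in all 12 tumors. The filter on low counts kept 7 members among 20818 genes. Ccl19, Glycam1 and Madcam1 did not pass it, so they have values but no test, and no count over the 7 stands for all 10. For 4 of the 7 (Cxcl13, Cxcr5, Ccl21a and Lta), Control replicate 1 alone held over 50% of the counts of all 12 tumors.

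Control replicate 1 held the highest level of 9 of the 10 members among the 12 tumors, and Ltbr was the exception, at rank 10. Over all genes tested, which leave out Ccl19, Glycam1 and Madcam1, this tumor was the highest for 11.3%. For 8 of the 10 its level was at least 4 times that of the next tumor. This held for 5 of the 7 tested members and for 0.331% of all genes tested. These counts belong to the choice of the genes and are given for scale. Summed over all 10 members, the level was 159.7 CPM in Control replicate 1 and 65.9 to 93.1 CPM in the other 11 tumors. Summed over the 9 genes other than Ltbr, it was 100.2 CPM in Control replicate 1 and 8.26 to 17.1 CPM in the others. That second sum leaves out the member that was not highest in that tumor.

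**Figure D1:**
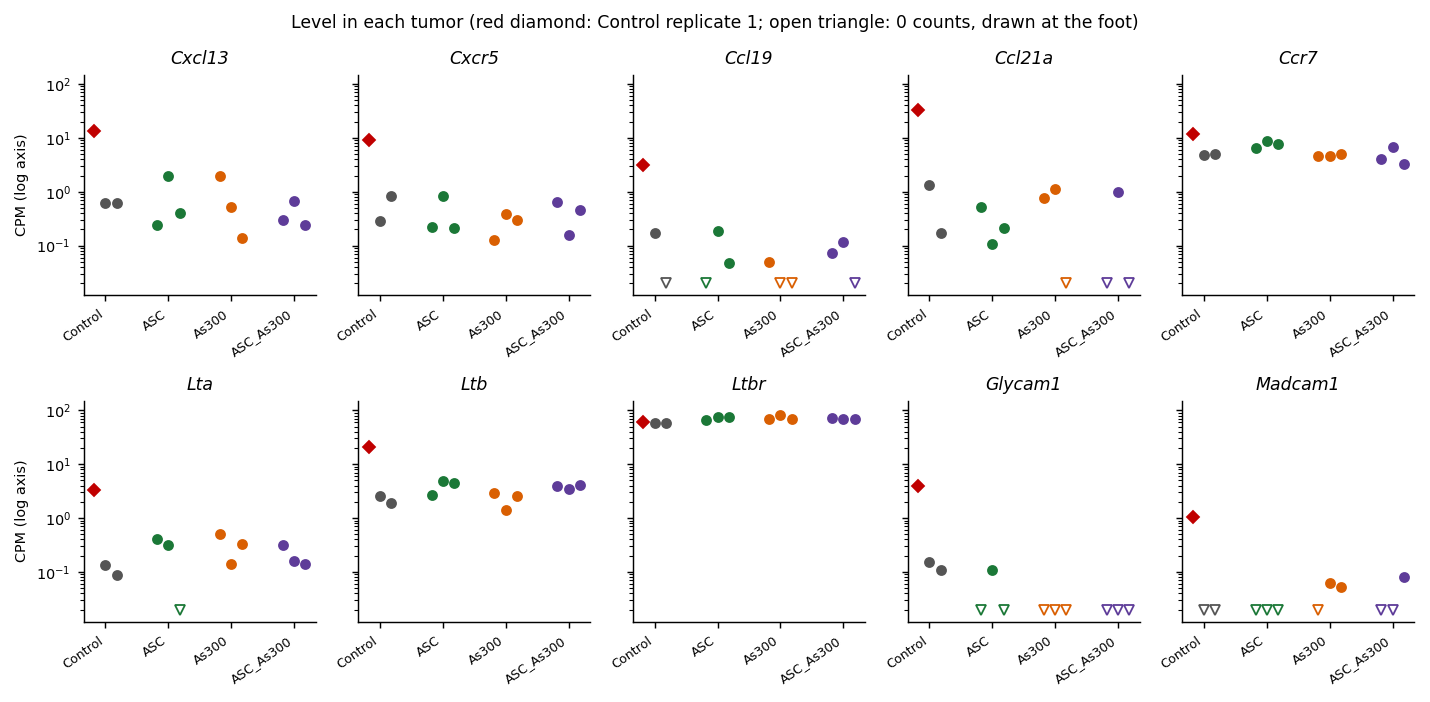
Level of each of the 10 genes in each of the 12 tumors, in CPM on a log axis, by group. The red diamond is Control replicate 1, which lies at least 4 times above the next tumor in 8 of the 10 panels, and open triangles are tumors with 0 counts.

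Among the ligands, Cxcl13, the B cell attractant of follicles, stood at 13.3 CPM in Control replicate 1 and at 0.614 and 0.608 CPM in the other Control tumors. It was at 0.243, 1.98 and 0.396 CPM in ASC, 1.95, 0.511 and 0.141 in As300 and 0.298, 0.672 and 0.237 in ASC_As300. Control replicate 1 was 6.70 times the next tumor, ASC replicate 2, and without it all 4 groups overlapped. In bulk tumors, fewer cells of a type and less RNA per cell cannot be told apart, here or below. Fitted over all 12 tumors, the log2 fold change against Control was -2.48 ± 1.24 (SE) in ASC, -2.49 ± 1.24 in As300 and -3.58 ± 1.31 in ASC_As300, with edgeR adjusted p of 0.367, 0.245 and 0.234. Without Control replicate 1 the same values became 0.52, 0.52 and -0.60, so that the sign turned in ASC and As300.

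Ccl21a, the T cell zone chemokine that also lines HEV, had the largest count of any ligand in a single tumor. Control replicate 1 held 1620 counts (33.5 CPM) and the other Controls 71 and 8. ASC tumors held 26, 4 and 9 counts, As300 tumors 30, 56 and 0, and ASC_As300 tumors 0, 51 and 0. Control replicate 1 was 24.6 times the next tumor, Control replicate 2, and 4 of the 12 tumors passed 50 counts. With the 5 copies summed, Control replicate 1 held 1902 counts and the others 1 to 100, and Ccl21a took 85.2% of the sum in that tumor. For Ccl21a alone, the log2 fold change against Control was -5.33 in ASC, -4.22 in As300 and -5.12 in ASC_As300, and it was -5.31, -3.95 and -4.70 with the copies summed. None passed the threshold for Ccl21a (adjusted p = 0.226, 0.182 and 0.244), and without Control replicate 1 the values were -1.42, -0.27 and -1.19. In ASC_As300 the level rested on replicate 2, and leaving it out moved the value to -12.11, a fit against tumors at 0 counts and no measure of size.

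Ccl19, made by fibroblastic stroma of T cell zones and by mature dendritic cells, was above the floor only in Control replicate 1, with 152 counts (3.14 CPM). The other Control tumors held 9 and 0 counts, and the largest count outside Control was 7, in ASC replicate 2. That is at least 12.7-fold the floor of 12 counts per library. Ccl19 and Ccl21a both overlap 4930578G10Rik in the annotation, and whether counting used strand is not given in the sources used here.

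The receptors divided into a pair with different patterns. Cxcr5, the receptor for Cxcl13 on B cells and follicular helper T cells, was at 9.09 CPM in Control replicate 1 and at 0.288 and 0.846 CPM in the other Controls. It was at 0.223, 0.831 and 0.210 CPM in ASC, 0.125, 0.388 and 0.300 in As300 and 0.633, 0.158 and 0.455 in ASC_As300. Control replicate 1 was 10.7 times the next tumor, Control replicate 3, and the remaining tumors of all groups lay in 1 range. The log2 fold change was -3.03 ± 1.08 in ASC, -3.63 ± 1.11 in As300 and -3.03 ± 1.07 in ASC_As300 (adjusted p = 0.214, 0.0795 and 0.222). In As300 the adjusted p ran from 0.0043 with the DESeq2 Wald test, which called Cxcr5, to 0.549 without Control replicate 1, where the log2 fold change was -1.03. Without that tumor the log2 fold change was -0.42 in ASC and -0.44 in ASC_As300. Cxcr5 overlaps Bcl9l in the annotation.

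Ccr7, the receptor for Ccl19 and Ccl21 on naive T cells and migrating dendritic cells, was present in every tumor. Its levels were 11.7, 4.78 and 4.97 CPM in Control and 6.42, 8.60 and 7.83 CPM in ASC. In As300 they were 4.68, 4.60 and 5.03 CPM, and in ASC_As300 4.11, 6.83 and 3.30 CPM. Control replicate 1 was only 1.36 times the next tumor, ASC replicate 2, and Control overlapped every other group. The group means were 7.62 ± 1.11 CPM (SD, n = 3) in ASC, 7.13 ± 3.92 in Control, 4.77 ± 0.23 in As300 and 4.75 ± 1.85 in ASC_As300, and neighbors in this order did not differ beyond their spread. Without Control replicate 1 the Control mean was 4.87 CPM. Every ASC tumor was above every As300 tumor, a pair that was not tested and has no share over all genes here. In the pairs of groups that were counted, 8.07% to 29.9% of the genes tested did not overlap. Against Control, the log2 fold change of ASC was 0.09 (adjusted p = 0.934), and 0.65 (95% interval 0.03 to 1.28, adjusted p = 0.316) without Control replicate 1. As300 and ASC_As300 were at -0.58 and -0.59 against Control (edgeR adjusted p = 0.338 and 0.446). Without that tumor they were at -0.01 and -0.03. ASC_As300 tumors were at -0.68 against ASC tumors (95% interval -1.43 to 0.07, adjusted p = 1).

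Lta, the soluble lymphotoxin subunit, was at 3.33 CPM in Control replicate 1 and at 0.134 and 0.0868 CPM in the other Controls. ASC tumors were at 0.405, 0.322 and 0 CPM, As300 tumors at 0.500, 0.143 and 0.335 and ASC_As300 tumors at 0.316, 0.158 and 0.139. The first Control tumor was 6.65 times the next, As300 replicate 1, and the other tumors lay within 0 to 20 counts. Fold changes against Control were -2.27, -1.86 and -2.52 on the log2 scale in ASC, As300 and ASC_As300 (adjusted p = 0.433, 0.411 and 0.388), and turned to 1.12, 1.55 and 0.87 without Control replicate 1, with 95% intervals that all held 0.

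Ltb, the membrane anchor of the lymphotoxin heterotrimer, was at 21.2 CPM in Control replicate 1, and at 2.55 and 1.87 CPM in the other Controls. It was at 2.73, 4.93 and 4.43 CPM in ASC, at 2.88, 1.41 and 2.53 in As300 and at 3.96, 3.48 and 4.13 in ASC_As300. Apart from Control replicate 1, the 5 highest values were in tumors with ASC, and every ASC_As300 tumor was above every As300 tumor. Against As300 the log2 fold change of ASC_As300 was 0.77 ± 0.71 (adjusted p = 0.767), and 19.7% of the genes tested had groups that did not overlap in this comparison. Against Control, Ltb was at -1.09 in ASC, -1.91 in As300 and -1.15 in ASC_As300 over all 12 tumors (adjusted p = 0.501, 0.131 and 0.466). Without Control replicate 1 they were 0.88 (95% interval 0.10 to 1.65), 0.06 (-0.71 to 0.82) and 0.81 (0.03 to 1.58), with adjusted p of 0.291, 0.956 and 0.34. T cell markers, Control replicate 1 apart, were also higher in both groups with ASC. Their summed level was 61.2 to 83.0 CPM in ASC and 55.9 to 86.7 CPM in ASC_As300. It was 17.6 to 23.3 CPM in As300 and 19.5 to 21.8 CPM in Control replicates 2 and 3. The match was not exact in every tumor. ASC replicate 1 had Ltb at 2.73 CPM with a T cell sum of 61.2 CPM. As300 replicate 1 had Ltb at 2.88 CPM with a T cell sum of 18.2 CPM. None of the 10 T cell markers was called against Control over all 12 tumors. Without Control replicate 1 the number called was 7 for ASC, 0 for As300 and 6 for ASC_As300, all higher. Of all genes in that fit, 1.01%, 0% and 0.937% were called. The part of T cells in the result was not tested.

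Ltbr, the receptor on stromal and myeloid cells, was the 1 member that did not follow the others. Control tumors were at 59.5, 57.4 and 57.3 CPM. ASC tumors were at 64.9, 76.0 and 76.8 CPM, As300 tumors at 69.7, 80.6 and 67.7 and ASC_As300 tumors at 71.5, 68.3 and 70.2. All 9 tumors of the other groups were above all 3 Controls, and those 3 groups overlapped one another. Groups without overlap with Control, in either direction, were found for 19.0% of the genes tested in ASC, 29.9% in As300 and 25.6% in ASC_As300, so that this separation was shared by many genes. The means were 58.1 ± 1.26 CPM (SD, n = 3) in Control, 70.0 ± 1.60 in ASC_As300, 72.5 ± 6.65 in ASC and 72.6 ± 6.93 in As300. The ratio to Control was 1.25 in ASC, 1.25 in As300 and 1.21 in ASC_As300, with log2 fold changes of 0.32 ± 0.09, 0.32 ± 0.09 and 0.27 ± 0.09 and adjusted p of 0.132, 0.0595 and 0.187. Neither the adjusted p nor the 1.5-fold minimum was met. Without Control replicate 1 the values were 0.35, 0.36 and 0.29 (adjusted p = 0.164, 0.0913 and 0.251). In As300 the adjusted p ran from 0.00835 to 0.236 over the alternatives, at log2 fold changes of 0.24 to 0.40, and no alternative reached 1.5-fold. The difference between the iAs effect with and without ASC, the interaction, was -0.37 ± 0.12 (adjusted p = 0.309), and -0.42 without Control replicate 1 (adjusted p = 0.306).

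**Figure D2:**
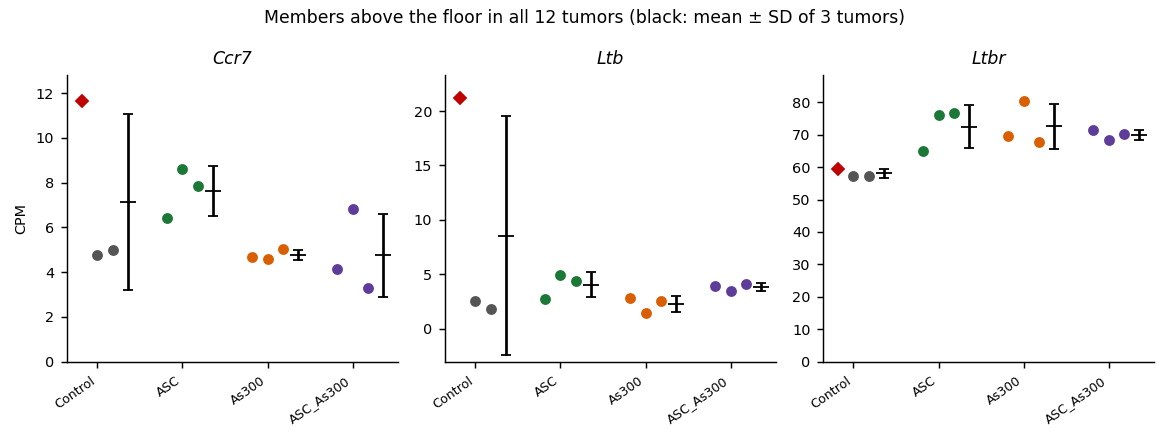
Ccr7, Ltb and Ltbr, the members above the floor in every tumor, in CPM on linear axes by group, with each tumor as a point and the mean ± SD of 3 tumors in black (the axis of Ltb runs below 0 to show its SD). Control replicate 1 (red diamond) sets the Control mean of Ltb and Ccr7, and for Ltbr all 9 other-group tumors lie above the 3 Controls.

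The HEV genes were seen almost only in Control replicate 1. Glycam1, the mucin-like glycoprotein, had 190 counts there (3.93 CPM), 8 and 5 in the other Controls, 0, 4 and 0 in ASC and 0 in all 6 tumors given iAs. This is at least 15.8-fold the floor of 12 counts per library. Madcam1, the mucosal addressin, had 51 counts in Control replicate 1 (1.05 CPM), 0 in the other Controls and in ASC, and at most 4 elsewhere, at least 4.25-fold the floor. For Glycam1 every tumor of each other group was below every Control tumor, but all values outside Control replicate 1 were at or under the floor.

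Levels per kilobase of exon set the members on 1 scale. In Control replicate 1 Ccl21a was at 38.5 CPM per kb, Ltbr at 25.3, Ltb at 14.0, Cxcl13 at 11.6 and Ccr7 at 5.89. In the median of the other 11 tumors Ltbr was at 29.6 CPM per kb, Ccr7 at 2.51, Ltb at 1.90, Cxcl13 at 0.444 and Ccl21a at 0.241. The receptor was thus the most abundant member outside Control replicate 1, and a ligand was the most abundant within it.

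No member was called in any of the 6 comparisons, where a call needs an adjusted p under 0.05 and 1.5-fold. Of the 20818 genes tested, 0.721% were called in ASC against Control, 1.06% in As300 against Control, 0.807% in ASC_As300 against Control, 0.855% in ASC_As300 against As300, 0% in ASC_As300 against ASC and 0% for the interaction. At an unadjusted p under 0.05, the number of the 7 tested members that passed against Control was 3 for ASC, 4 for As300 and 4 for ASC_As300, 0 in ASC_As300 against either ASC or As300, and 2 for the interaction, by edgeR. Of all genes tested, 15.4%, 24.1% and 15.2% passed in the 3 comparisons with Control and 13.6% for the interaction. In ASC_As300, 3.21% passed against ASC and 9.98% against As300. In the comparisons with Control over all tumors, the passing members other than Ltbr were all lower. None of these passed in the same comparison without Control replicate 1. Without that tumor, Ccr7, Ltb and Ltbr passed in ASC, Ltbr in As300, and Ltb and Ltbr in ASC_As300, all higher. Only Ltbr then passed for the interaction. At this unadjusted threshold that fit has no share over all genes here, so these passes cannot be set against a background. With all tumors, the DESeq2 Wald test called 1 member, Cxcr5 in As300. The median log2 fold change of the 7 against Control was -2.27 in ASC, -1.91 in As300 and -2.52 in ASC_As300, and that of all genes tested was -0.00, -0.03 and -0.02. Without Control replicate 1 the medians were 0.52, 0.06 and -0.03, and no member was called, beside 1.01%, 0% and 0.937% of 21664 genes.

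Between ASC_As300 and ASC, none of the 10 members had groups that did not overlap, against 8.07% of the genes tested. The 7 log2 fold changes of that comparison ran from -1.10 for Cxcl13 to 0.21 for Ccl21a, with adjusted p of 1. The intervals were wide for the rare members, -3.82 to 1.61 for Cxcl13, and narrow for Ltbr, -0.24 to 0.14.

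**Figure D3:**
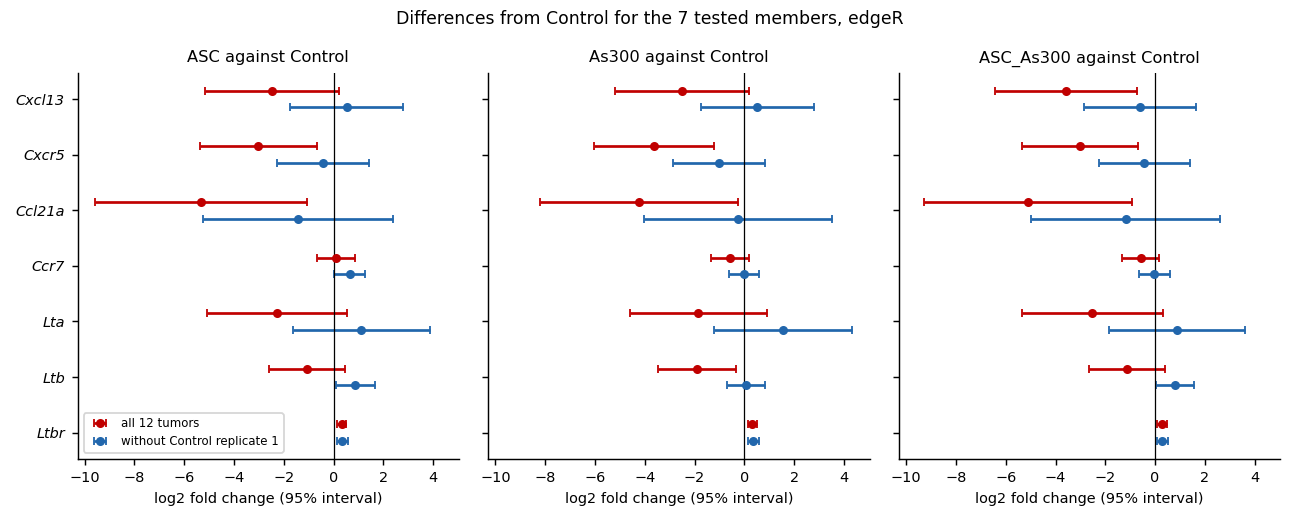
Log2 fold change against Control with its 95% interval for the 7 tested members, from edgeR, with all 12 tumors (red) and without Control replicate 1 (blue). Cxcl13, Cxcr5, Ccl21a, Lta and Ltb lie far to the left with all tumors, at -1.09 to -5.33 in ASC, and move toward or past 0 without that tumor, while Ltbr stays at 0.27 to 0.36.

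Further genes of the pathway were read from a list of 26 (other ligands and receptors of the family, and the noncanonical NF-kB genes), 24 of which were tested. Against Control, 0 of 24 were called in ASC and in As300, and 1 fell in ASC_As300: Gpr183, the oxysterol receptor that positions B cells and dendritic cells, by 1.23 on the log2 scale (adjusted p = 0.0467, SE 0.26). Its levels were 9.92, 8.10 and 6.12 CPM in Control and 3.03, 4.52 and 2.77 in ASC_As300, without overlap. The same gene was at -1.12 in ASC (adjusted p = 0.0752). The call was kept in 7 of 19 alternatives, with an adjusted p of 0.000426 to 0.239, and was lost without any 1 of the Control tumors (adjusted p = 0.128 without replicate 1, 0.133 without replicate 2 and 0.0586 without replicate 3). Nfkb2, the substrate of the noncanonical pathway below Ltbr and the most abundant gene of the list, was at 114, 124 and 116 CPM in Control and at 127 to 146 CPM in the other 9 tumors, with log2 fold changes of 0.17, 0.23 and 0.20 (adjusted p = 0.262, 0.0754 and 0.208). Tnfrsf1a, a receptor for Tnf and soluble Lta, was at 0.35, 0.12 and 0.31 (adjusted p = 0.102, 0.469 and 0.141). The median of the 24 was 0.06 in ASC, -0.11 in As300 and 0.08 in ASC_As300. Without Control replicate 1, Nfkb2 was at 0.16, 0.22 and 0.18, Tnfrsf1a at 0.32, 0.10 and 0.27, and the median at 0.18, -0.08 and 0.13, with 0 of the 24 called.

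Of the 12 HEV and homing genes, 11 were tested and 0 were called in any comparison. With Control replicate 1 left out, Icam1, an adhesion ligand for leukocyte integrins, was called higher in ASC (1.01 on the log2 scale, adjusted p = 0.0458) and in ASC_As300 (1.05, adjusted p = 0.037) against Control. Their sum was 374 CPM in Control replicate 1 and 215 to 314 CPM in the others, and 5 of the 12 were highest there. Among the 5, named after its values were seen, was Chst4, a sulfotransferase of HEV cells, at 0.599 CPM against 0 in all 11 others. Vcam1, at 93.8, 84.3 and 71.1 CPM in Control, did not set that tumor apart.

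Marker genes of other cells were read in the same tumors. All 11 B cell markers were highest in Control replicate 1, with a sum of 296.6 CPM against 6.93 to 25.2 CPM in the other 11 tumors, of which ASC replicate 2 was the highest. Cd79a, of the B cell receptor, was at 47.0 CPM there against at most 2.44 CPM elsewhere. Across these 11 markers, 0 were called in any comparison. The 10 T cell markers summed to 107.6 CPM in Control replicate 1, and 6 of them were highest in it. Of the 10 germinal center and follicular helper genes 3 were highest in that tumor, with Rgs13 and Il21 at 0. The 8 plasma cell markers divided. Jchain, the joining chain of secreted antibody, was at 17.9 CPM in Control replicate 1 against at most 2.41 CPM, and Mzb1 at 3.16 against at most 0.831, whereas Xbp1 and Sdc1, which many other cells express, were lowest there and made most of the sum of 183.6 CPM (192 to 228 in the others).

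Stromal and other lists differed less or in another way. The 7 genes of lymphoid stroma summed to 847 CPM in Control replicate 1, within the 677 to 903 CPM of the others, and the 9 of mature dendritic cells to 254 CPM, within 239 to 371. Most of the latter sum was Fscn1, and 4 of the 9 were highest in that tumor, Ccl22 among them at 19.1 CPM against at most 12.6. For lymphatic endothelium 4 of 5 markers were highest there, Prox1 at 1.98 CPM against at most 0.409, but the sum, 34.5 CPM, was below the 44.0 CPM of Control replicate 2, where Lyve1 was at 34.9 CPM. The 5 leukocyte genes summed to 442 CPM, within 228 to 527. Adipocyte markers stood at 362 CPM, below ASC replicate 2 at 745 CPM and above the 229 CPM of the next, and skeletal muscle genes at 1.26 CPM, the lowest of all. Epithelial Krt8 was at 337 CPM against at most 113, and Krt18 at 19.7 against at most 1.40. The part of B cell, epithelial and adipocyte content in the levels of the members was not tested.

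Over the 17 lists, called genes besides Gpr183 were few. Pdcd1, the checkpoint receptor of activated and follicular helper T cells, rose by 2.88 on the log2 scale in ASC and by 2.71 in ASC_As300 against Control, and by 2.78 in ASC_As300 against As300 (adjusted p = 0.0153, 0.0218 and 0.0177). Ly6a, found on stromal progenitors and lymphocytes, rose in the same 3 comparisons (1.75, 1.75 and 1.61), Clu fell in ASC against Control and in ASC_As300 against As300 (-1.40 and -1.28), Krt8 fell in ASC_As300 against Control (-2.51, and -1.41 without Control replicate 1, adjusted p = 0.00806) and Itgb2 rose in ASC_As300 against As300 (0.89). In As300 against Control and in ASC_As300 against ASC no gene of any list was called. Without Control replicate 1, Pdcd1 was at 3.29 and 3.12 and Ly6a at 1.83 and 1.82 against Control, all still called, while Clu in ASC was at -1.01 and no longer called (adjusted p = 0.0639). Besides the T cell genes and Icam1 given above, 2 of the 5 leukocyte genes were then called in ASC and 2 in ASC_As300. The median log2 fold change of the 5 was 0.84 and 0.96. Of the 7 epithelial genes, 1 was called in ASC without that tumor.

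ASC replicate 2 came next after Control replicate 1 for 4 members, Cxcl13, Ccl19, Ccr7 and Ltb, and it was also next for the B cell sum. Control replicate 2 came next for Ccl21a and Glycam1.

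**Figure D4:**
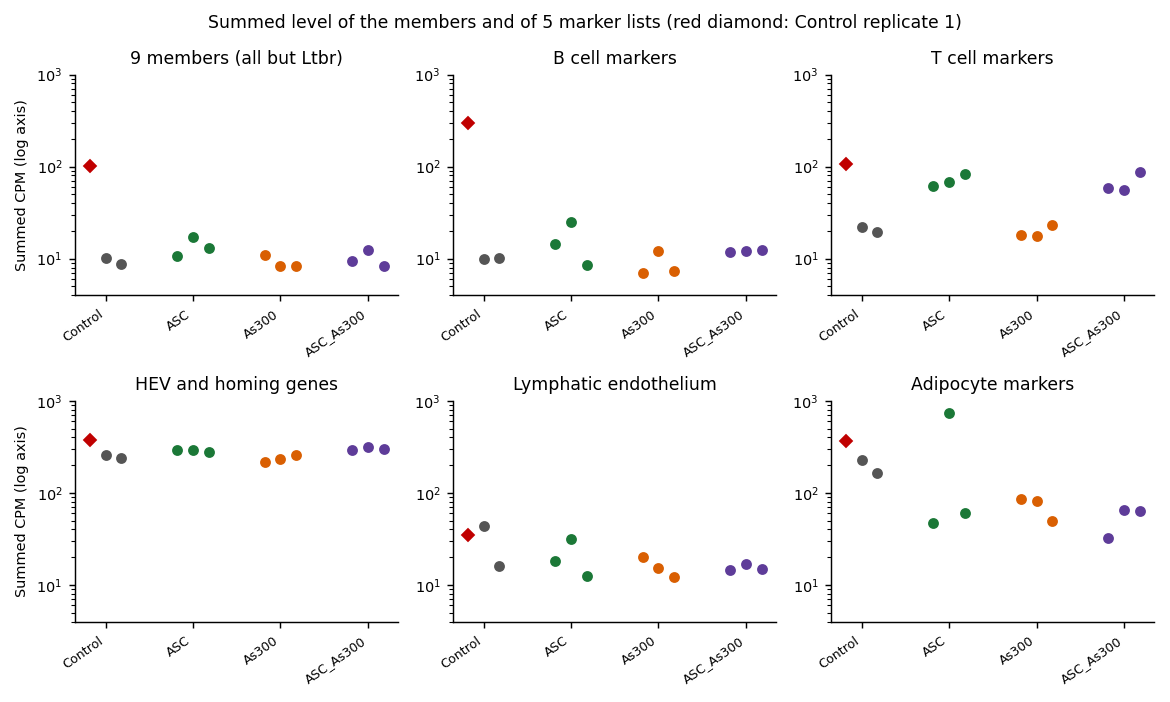
Summed level, in CPM on a log axis, of the 9 members other than Ltbr and of 5 marker lists, by group, with 1 point per tumor. Control replicate 1 (red diamond) is at 100.2 CPM for these 9 members, against at most 17.1 in any other tumor. With Ltbr included, the members sum to 159.7 CPM there against at most 93.1. For B cell markers that tumor is at 296.6 CPM against at most 25.2. It lies inside the range of the others for lymphatic endothelium and adipocytes.

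The genes whose levels were ordered most like those of 3 members were sought over all genes tested, as a description over 12 tumors that share depth and groups. For Cxcl13 these were Prelp (Spearman rho 0.958), Lpl (0.944), Rnf144a (0.937), Susd1 (0.930) and Sult1e1 (0.929). They were at 0.907 to 0.955 over the 11 tumors without Control replicate 1. The same 11 tumors had a part in choosing the genes, so high values there are no separate check, here or below. For Ccl19, whose low counts are largely ties, they were Ncr3-ps, Gm37216, Cyp2f2, Trbv13-2 and Blk, at 0.906 to 0.937, and at 0.877 to 0.925 without that tumor. For Ltb they were Cd28 (0.930), Cd27 (0.930), Haao (0.923), Trim5 (0.923) and H2-T10 (0.916), at 0.900 to 0.945 without that tumor. Cd28 and Cd27 encode costimulatory receptors of T cells, and Lpl encodes lipoprotein lipase, which adipocytes and macrophages make.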

How the data were processed

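The authors trimmed paired-end reads and aligned and assembled them (cutadapt 1.1.0, HISAT2 2.0 and StringTie 1.3.4, per the submitters' processing notes). Libraries came from a stranded mRNA kit, and quantification used StringTie and Ballgown with FPKM as its output. The authors deposited raw counts for each gene and tumor, without normalization. The step from there to whole-number counts, its strand setting and the genome build are not given in the sources used here. The members and marker lists were chosen with earlier results of these data known. Symbols, positions and exon lengths came from GENCODE M21 and promoters from RefSeq.

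Counts were analysed with R 4.3.3 and edgeR 4.0.16: filterByExpr by group, TMM (factors 0.9535 to 1.054), 1 quasi-likelihood fit of all 12 tumors with a mean per group, and Benjamini-Hochberg adjusted p over 20818 genes. A call needed an adjusted p under 0.05 and 1.5-fold. Exact tests of 3 against 3 tumors cannot reach 0.05. The script was tested on simulated data. Alternatives were the DESeq2 1.42.0 Wald test, its size factors, other filters, counts divided by 4, the compared groups alone, a replicate block, and each tumor left out, with summed Ccl21 copies added after the data were seen. All 10 members are named. Of each list up to 4 are named, the called ones with the smallest p, otherwise the most abundant, and likeness takes the 5 genes with the highest Spearman rho. Of the lists, Chst4, Rgs13, Il21, Prox1, Mzb1, Icam1 and Epcam fall outside this rule and were named after their values were seen. Replicate pairs differed by more than sampling noise.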

Additional observations from a re-analysis of the deposited data

How the results depend on the processing

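Over the alternatives, 118 of 119 counts of called members were 0, and the exception was 1 member (Cxcr5) in As300 against Control with the DESeq2 Wald test. Of 759 log2 fold changes of members, 29 moved by more than the spread between replicates, 24 of them without Control replicate 1. That spread was the pooled SD of log2 CPM within groups, with Control replicate 1 included. It ran up to 2.68 for Ccl21a and was 0.0983 for Ltbr, so the rare members needed a large change to count as moved.

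Genes called by the DESeq2 Wald test against Control were 448 for ASC, 794 for As300 and 356 for ASC_As300. They were 11 in ASC_As300 against ASC, 379 against As300 and 123 for the interaction. In As300 against Control, 220 genes were called, and 8 with no filter on low counts, 454 with at least 10 counts in every tumor, 593 with no minimum of the fold change and 460 with counts divided by 4. With the compared groups alone, 89 genes were called in ASC against Control and 1 in ASC_As300 against ASC. Leaving out 1 tumor at a time gave, against Control, 105 to 355 genes for ASC, 0 to 399 for As300 (0 without any 1 Control tumor) and 90 to 203 for ASC_As300. It gave 0 to 1 in ASC_As300 against ASC, 95 to 277 against As300 and 0 to 1 for the interaction. The cause was not tested.

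Same-numbered tumors did not deviate together (correlations of -0.124 to 0.172, over 0.1 in 2 of 18 pairs). With the replicate block, 148 genes were called for ASC, 195 for As300 and 155 for ASC_As300 against Control, 152 in ASC_As300 against As300, and 0 members in any comparison. Depth limits Ccl19, Glycam1 and Madcam1, which lay at or under 12 counts in 11 of 12 tumors.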
